A study of Mus musculus with 6 samples.

Results

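The HoxD cluster genes read here are Hoxd13, Hoxd12, Hoxd11, Hoxd10, Hoxd9, Hoxd8 and Hoxd1, 7 of the 12393 genes that the arrays measured. They were chosen by name, and each was read by 1 of the 22690 probe sets, so no choice between probe sets had to be made. RNA came from cells of C57BL/6 mouse gut taken at embryonic day 13.5, freed of part of their endoderm by collagenase and trypsin and then cultured for 3 days in 20% serum. Affymetrix 3′ arrays measured 3 groups of 2 biological replicates, which here are called stomach, intestine and Barx1 intestine. Stomach and intestine came from control embryos that carried either the Rosa26 allele with Barx1 (Rosa26+/Barx1) or the Cre allele (Bapx1+/Cre), and the labels do not say which array held which. Barx1 intestine came from embryos with both alleles, in which Cre made under the Bapx1 locus switches on BARX1, a homeodomain transcription factor of the stomach mesenchyme, so that only cells with a history of Bapx1 activity would carry it. The title of the series asks how BARX1 controls stomach smooth muscle and the rotation of the intestine, and reading the HoxD genes in the 3 groups asks whether this axial code differed between the organs and with BARX1. The labels held for Barx1 itself, whose log2 level was 9.82 and 9.79 for stomach, 5.13 and 4.93 for intestine and 8.66 and 8.79 for Barx1 intestine.

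HOX proteins are homeodomain transcription factors that give cells their position along the head-to-tail axis, and the order of the genes in a cluster follows the order of their domains in the embryo. Genes at the 3′ end of the HoxD cluster, such as Hoxd1, are active early and far forward, while those at the 5′ end, from Hoxd9 to Hoxd13, resemble Abdominal-B of the fly and mark the trunk's rear, the limbs and the genitalia. In the gut, the genes at the 5′ end are known for the hindgut and its sphincters, and Hoxd8 lies at the border between the central and the posterior genes.

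Hoxd8 was the 1 member of the cluster whose level differed between groups past the threshold, and the promoters of Hoxd8 and of its 5′ neighbour Hoxd9, which did not, are shown for that reason. RefSeq windows (build GRCm38.p6) from 250 bases before to 50 bases after the start matched all 7 genes, with 2 windows for Hoxd11. The Hoxd8 window is chr2:74704365-74704664 and the Hoxd9 window is chr2:74697513-74697812, both on the plus strand. Capitals mark TAAT on either strand, the core of many homeodomain sites.
Hoxd8: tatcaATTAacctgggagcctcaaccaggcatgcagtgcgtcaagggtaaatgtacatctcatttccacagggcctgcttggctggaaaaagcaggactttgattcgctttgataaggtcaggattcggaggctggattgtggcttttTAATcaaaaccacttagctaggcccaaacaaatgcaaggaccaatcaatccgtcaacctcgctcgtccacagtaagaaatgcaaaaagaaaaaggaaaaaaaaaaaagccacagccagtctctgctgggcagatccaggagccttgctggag
Hoxd9: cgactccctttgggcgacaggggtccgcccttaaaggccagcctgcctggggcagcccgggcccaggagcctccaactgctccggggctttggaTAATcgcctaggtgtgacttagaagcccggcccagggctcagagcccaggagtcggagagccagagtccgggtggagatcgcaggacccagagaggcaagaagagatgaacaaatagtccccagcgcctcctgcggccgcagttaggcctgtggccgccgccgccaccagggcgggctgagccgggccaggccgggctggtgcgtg
The Hoxd8 window held TAAT 2 times and that of Hoxd9 1 time. The windows of Hoxd10 and Hoxd12 held it 1 time each, those of Hoxd11 3 and 2 times, counting both strands of a TAATTA, and those of Hoxd13 and Hoxd1 held none. Of all 32851 windows in the table, 58.0% held TAAT at least 1 time, so its presence in 5 of the 7 genes is a description and no sign of a site. TTTAT, a core of CDX sites searched in the same way, was found 2 times each in the Hoxd13 window and in 1 window of Hoxd11, and in 40.0% of all windows. The windows also differed in base composition. The Hoxd8 window had 46.7% G and C and 6 CpG dinucleotides, the Hoxd9 window 68.3% and 20, and the Hoxd13 window 74.3% and 37, against medians of 52.7% and 7 over all windows.

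On the log2 scale the Hoxd8 probe set (1431099_at) read 6.76 and 6.73 in the stomach arrays, 7.17 and 7.07 in the intestine arrays, and 8.12 and 7.87 in those with BARX1. The groups did not overlap, with stomach lowest and Barx1 intestine highest. It lay above 47.7% to 63.2% of all probe sets of an array, well clear of the lower quartile. The 2 arrays of Barx1 intestine lay further apart than those of the other groups, with an SD of 0.18 against 0.02 in stomach and 0.07 in intestine.

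**Figure D1:**
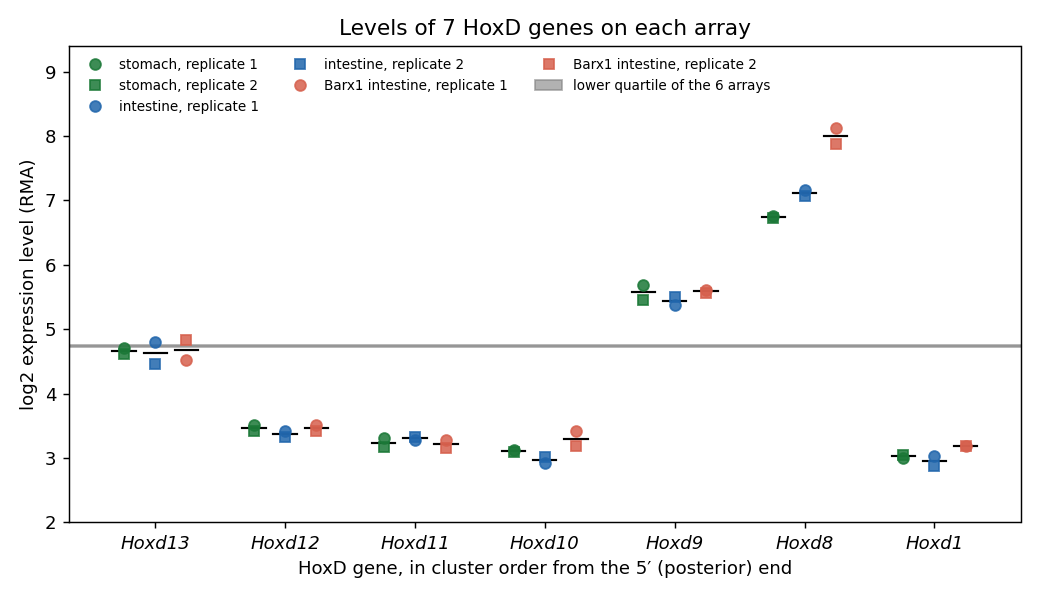
Log2 expression level of each HoxD gene (vertical axis) on each of the 6 arrays, with the genes along the horizontal axis in cluster order from the 5′ end. Circles are replicate 1, squares replicate 2, black lines the means of 2 arrays, and the grey band the lower quartiles of all probe sets (4.72 to 4.76). Hoxd8 rises from 6.73 on the lowest stomach array to 8.12 on the highest Barx1 intestine array, while Hoxd10, Hoxd11, Hoxd12 and Hoxd1 stay under the band in all groups.

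Hoxd8 rose in Barx1 intestine against intestine by 0.88 (SE 0.10, 95% interval 0.64 to 1.12, limma adjusted p = 0.0188, n = 2 each), which is 1.84-fold. Of all genes tested, 1.86% passed as higher in this comparison and 3.98% in either direction, and of the 7 HoxD genes 1 passed. The size was similar whichever array was left out, from 0.75 to 1.00, but the call held in only 2 of those 6 fits. It ended without stomach replicate 1 or without stomach replicate 2 (adjusted p = 0.0642, the same fit for this comparison). It also ended when intestine replicate 2 was left out (adjusted p = 0.0637), or Barx1 intestine replicate 1 (adjusted p = 0.0667).

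Hoxd8 in Barx1 intestine also stood above the stomach, by 1.25 (SE 0.10, interval 1.01 to 1.49, limma adjusted p = 0.0114, n = 2 each) or 2.38-fold. In this comparison 2.56% of genes passed as higher, and Hoxd8 was again the 1 HoxD gene that did. The call ended without stomach replicate 1 (adjusted p = 0.0764) or 2 (adjusted p = 0.107) and when Barx1 intestine replicate 1 was left out (adjusted p = 0.0550), with differences of 1.13 to 1.38 over the 6 fits. Without stomach replicate 2 no gene at all passed by limma, although 1906 had an unadjusted p under 0.05.

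Between the control organs Hoxd8 was lower in stomach than in intestine by a difference of -0.38 (SE 0.10, interval -0.62 to -0.14), which narrowly missed the threshold (unadjusted p = 0.00918, limma adjusted p = 0.0523, n = 2 each). It passed without either array of the Barx1 intestine (adjusted p = 0.0340). As reported, 0 of the 7 HoxD genes passed between stomach and intestine, where 16.9% of all genes did, and 1, Hoxd8, had an unadjusted p under 0.05. The level of Hoxd8 in Barx1 intestine was thus above both control organs, on the far side of the intestine from the stomach. All 3 comparisons share groups, so they are not independent of each other.

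**Figure D2:**
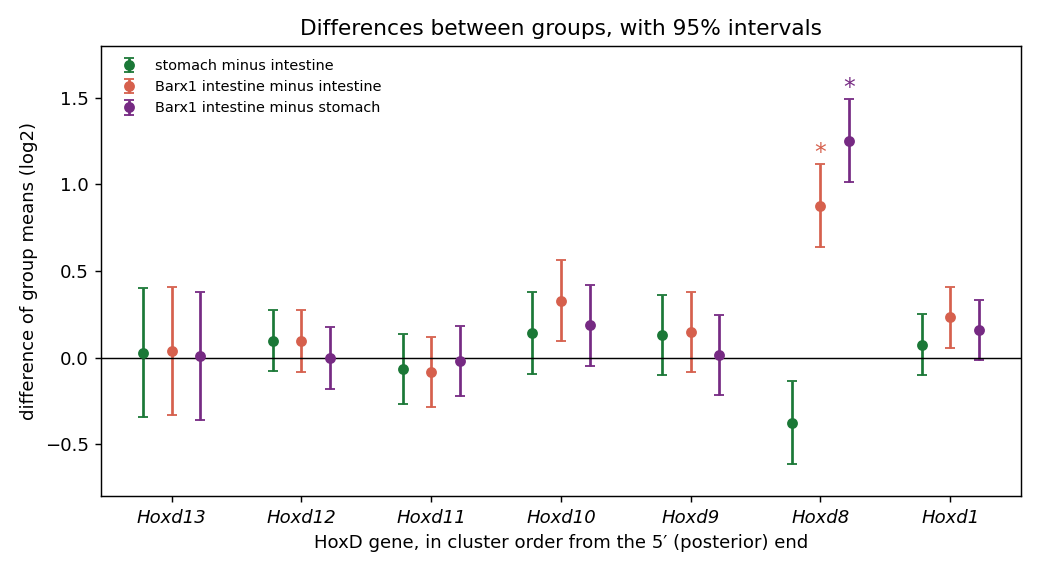
Differences of group means on the log2 scale (vertical axis) for the 7 HoxD genes in cluster order, with 95% intervals from the limma fit of all 6 arrays and 2 arrays a group. An asterisk marks an adjusted p under 0.05. Both asterisks stand at Hoxd8, at 0.88 and 1.25, and the other differences lie between -0.08 and 0.33 apart from that of Hoxd8 between stomach and intestine (-0.38).

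Hoxd9, which acts with its paralogs in limb and spinal motor patterning, was the second member above the lower quartile on all arrays (probe set 1419126_at, above 32.5% to 36.1% of probe sets). The stomach arrays read 5.68 and 5.46, the intestine arrays 5.38 and 5.50, and the Barx1 intestine arrays 5.60 and 5.57. The stomach arrays bracketed 1 intestine array and both Barx1 intestine arrays, and the differences were 0.13, 0.15 and 0.02 for stomach minus intestine, Barx1 intestine minus intestine and Barx1 intestine minus stomach. None passed (limma adjusted p from 0.371 to 0.936), and the interval for Barx1 intestine minus intestine ran from -0.08 to 0.38, below the lower bound of 0.64 for Hoxd8.

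Hoxd13, which shapes digits, genitalia and the end of the gut, lay at the edge of the lower quartile (1422239_at), with 4 of 6 arrays below it. Its levels were 4.71 and 4.62 for stomach, 4.80 and 4.47 for intestine, and 4.52 and 4.83 for Barx1 intestine. The groups overlapped throughout, and the difference of Barx1 intestine from intestine, 0.04, had a wide interval from -0.33 to 0.41.

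Hoxd12 and Hoxd11, partners of Hoxd13 in limb and, for Hoxd11, kidney development, were below the lower quartile on all 6 arrays. Hoxd12 (1450553_at) ranged from 3.32 to 3.51 and Hoxd11 (1450584_at) from 3.15 to 3.32. None of their differences passed by limma, with adjusted p from 0.389 to 0.994 for Hoxd12 and from 0.589 to 0.909 for Hoxd11. The deposited values used here carry no detection calls, so a level below the lower quartile was not shown to be above background. A low transcript level and a probe set that reads weakly cannot be told apart at such levels, and a small difference there sets no bound on the change of the transcript.

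Hoxd10, a gene of hindlimb motor neurons, and Hoxd1, the member at the 3′ end that is known from pain-sensing neurons, were just as dim but were ordered like Hoxd8 in one respect. Hoxd10 (1418606_at) had levels of 3.13 and 3.09 for stomach, 2.92 and 3.02 for intestine, and 3.42 and 3.18 for Barx1 intestine. Hoxd1 (1420573_at) read, in the same order of groups, 3.00 and 3.05, 3.02 and 2.88, and 3.19 and 3.18. Both Barx1 intestine arrays were above both intestine arrays for each gene, an order that 30.1% of all genes shared. The differences from intestine were 0.33 (interval 0.09 to 0.56, unadjusted p = 0.0146, limma adjusted p = 0.114) for Hoxd10 and 0.23 (interval 0.06 to 0.41, unadjusted p = 0.0176, limma adjusted p = 0.125) for Hoxd1, and neither passed. Without 1 array Hoxd10 ran from 0.21 (without Barx1 intestine replicate 1) to 0.45 and Hoxd1 from 0.16 (without intestine replicate 2) to 0.31. Without Barx1 intestine replicate 1 the HoxD genes at an unadjusted p under 0.05 went from 3 to 1. With Hoxd8, Hoxd9 and Hoxd12, 5 of the 7 genes had both Barx1 intestine arrays above both intestine arrays and 0 had them below, where 30.1% of all genes had them above and 22.4% below.

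Read along the cluster, the differences of Barx1 intestine from intestine were 0.04 at Hoxd13, 0.10 at Hoxd12, -0.08 at Hoxd11, 0.33 at Hoxd10, 0.15 at Hoxd9, 0.88 at Hoxd8 and 0.23 at Hoxd1. Since 5 of these genes lay below the lower quartile on most or all arrays, no trend along the cluster can be read from them. Probe sets that the annotation gives to both Hoxd3 and Hoxd4, which lie between Hoxd8 and Hoxd1, name no single gene and were left out. The reference gene table places the long noncoding RNA gene Gm38462 across Hoxd8, and Hoxd10 and Hoxd11 across each other. Whether transcripts of an overlapping gene add to these readings was not tested.

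None of the 6 measured genes listed around the cluster passed. Of the 11 neighbours listed, Lnpk, Hoxd3, Hoxd4, Hnrnpa3 and Agps had no reading of their own. Of the 6 measured neighbours, Chn1, Atf2, Atp5g3, Evx2, Mtx2 and Nfe2l2, 0 passed in any of the 3 comparisons by limma, as in every fit that left out 1 array, and 0, 1 and 1 had an unadjusted p under 0.05. Of all 12393 genes 10293 had no call between stomach and intestine, 11900 between the intestine groups and 11749 between Barx1 intestine and stomach. At an unadjusted limma p under 0.05 were 4176, 2924 and 3000 of them. Most genes had no call, so 0 of 6 does not set the neighbours apart. Evx2, the homeobox gene beside Hoxd13, had mean levels of 5.19, 4.96 and 5.18 for stomach, intestine and Barx1 intestine (limma adjusted p from 0.153 to 0.984). Mtx2, a mitochondrial import gene beyond Hoxd1, differed by 0.12 between Barx1 intestine and intestine (limma adjusted p = 0.314). The median difference of the 6 in that comparison was 0.014, against 0.021 for all genes.

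The paralogs of Hoxd8 and Hoxd9 in the other clusters gave other sets of calls. Hoxc8, the measured paralog of Hoxd8, gave 3.89 and 3.66 on the stomach arrays, 8.52 and 8.14 on those of intestine, and 8.77 and 8.46 on those of Barx1 intestine. It fell in stomach against intestine (-4.55, adjusted p = 0.000560), and since its stomach level lay below the lower quartile the true difference may be larger. It stood at 0.29 above intestine in Barx1 intestine without a call (adjusted p = 0.379). In Barx1 intestine Hoxc8 and Hoxd8 were both above the stomach, Hoxc8 by 4.84 (adjusted p = 0.00325), which ended without stomach replicate 2 (adjusted p = 0.0582). Hoxa9 rose from 5.73 and 5.10 in intestine to 7.46 and 7.24 in Barx1 intestine, and read 7.08 and 7.05 in stomach. Its difference from intestine was 1.93 (SE 0.21, adjusted p = 0.0179), while that from stomach, 0.28, did not pass (adjusted p = 0.465). With the mean of the Hoxa9 probe sets the differences from intestine were smaller, 1.17 in Barx1 intestine (adjusted p = 0.0249) and 1.02 in stomach (adjusted p = 0.0130), against 1.65 in stomach from the probe set used.

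Hoxb9 rose likewise by 1.14 over intestine (adjusted p = 0.0301) and differed from stomach by 0.39 without a call (adjusted p = 0.222). Hoxc9 showed no call between Barx1 intestine and intestine (0.19, adjusted p = 0.387) and stood above the stomach by 0.71 (adjusted p = 0.0358). Between the control organs Hoxc9 was lower in stomach than in intestine (-0.52, adjusted p = 0.0356) and Hoxb9 was higher (0.75, adjusted p = 0.0330). With alternatives that kept both arrays of each compared group, these adjusted p rose to as much as 0.066 and 0.0606, above the threshold. Over the 6 fits that left out 1 array, Hoxa9 and Hoxb9 stayed past the threshold against intestine in 2 each. They lost the call without either stomach array (adjusted p = 0.0630 and 0.0881) and without Barx1 intestine replicate 1 (0.113 and 0.155) or replicate 2 (0.0653 and 0.0870). Hoxc9 kept its call against stomach in 2 fits and lost it without stomach replicate 1 or 2 (0.188 and 0.185) and without Barx1 intestine replicate 1 or 2 (0.151 and 0.111).

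**Figure D3:**
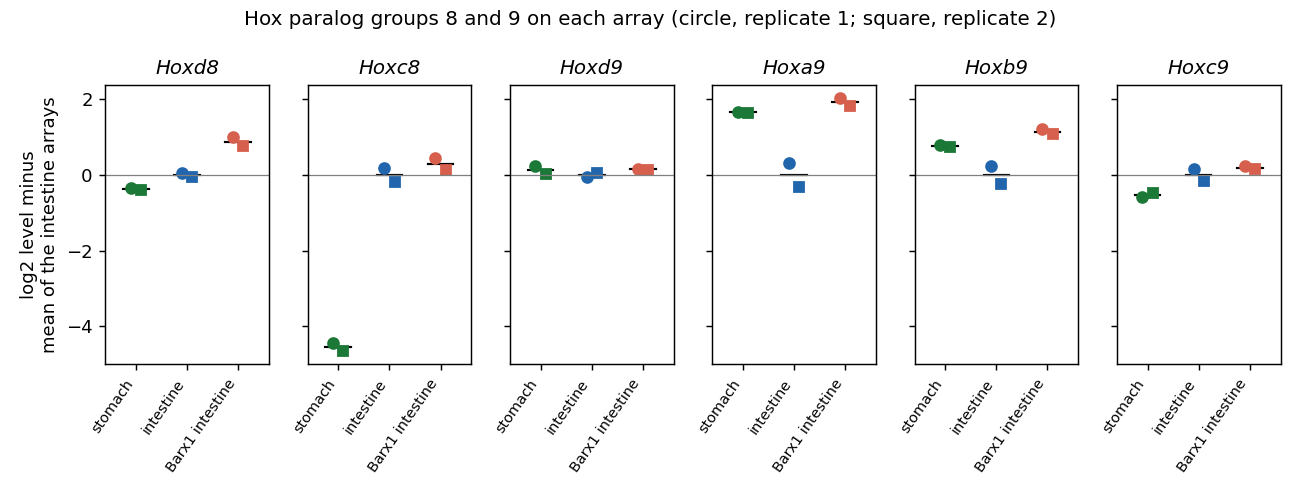
Log2 level minus the mean of the 2 intestine arrays (vertical axis) for the measured genes of Hox paralog groups 8 and 9, by group and array. Black lines are means of 2 arrays. Hoxd8 is above 0 in Barx1 intestine (0.88) and below it in stomach (-0.38), Hoxa9 and Hoxb9 are above 0 in both, and Hoxc8 is far below 0 in stomach (-4.55).

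Of the 10 measured paralogs of the HoxD genes, 2 rose and 0 fell in Barx1 intestine against intestine, with a median difference of 0.19. Of all 12393 genes 1.86% rose and 263 genes fell in this comparison, with a median difference of 0.021. Those of paralog groups 10 to 13, namely Hoxa10, Hoxa11, Hoxa13, Hoxb13 and Hoxc13, passed in no comparison. Except for Hoxc13, these lay below the lower quartile on all arrays and were not shown to be above background. Of the 14 other measured Hox genes, 1 rose (Hoxa7, 0.48, adjusted p = 0.0417) and 1 fell (Hoxb5, -0.39, adjusted p = 0.0446), and 0 of the 14 passed in any of the 6 fits without 1 array. Hoxb6, named after its values were seen, had the same order of groups as Hoxd8, with 8.30 and 8.49 for stomach, 8.86 and 8.60 for intestine, and 9.24 and 9.17 for Barx1 intestine. It was higher in Barx1 intestine than in stomach (0.81, adjusted p = 0.0253), a call kept in 2 of the 6 fits, and was 0.48 above intestine without a call (adjusted p = 0.0763). Hoxa9 and Hoxb9 too had both Barx1 intestine arrays above all arrays of the control organs, and the genes were not tested against each other. How many of all genes had that order was not counted. Both Barx1 intestine arrays stood above both intestine arrays in 30.1% of all genes.

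HOX proteins bind DNA together with the homeodomain cofactors PBX, MEIS and PKNOX. Of the 8 measured cofactor genes, 4 rose in stomach against intestine and 0 fell, where 8.86% of all genes rose, with Meis1 (1.13, adjusted p = 0.00124), Meis2 (0.79, adjusted p = 0.00966), Pbx3 (0.41, adjusted p = 0.0107) and Pbx2 (0.24, adjusted p = 0.0386). No fit without 1 array kept all 4, with 1 to 3 higher. Pbx2 lost this call in all 6 fits (adjusted p from 0.0636 to 0.191), and Meis2 and Pbx3 lost theirs without stomach replicate 1 (0.0665 and 0.0810) or 2 (0.0792 and 0.0858). In Barx1 intestine against intestine 2 of the 8 rose, where 1.86% of all genes did. Meis1 went from 8.64 and 8.63 on the intestine arrays to 9.44 and 9.36 on those of Barx1 intestine, a difference of 0.76 (adjusted p = 0.00836), and lost its call in 1 of 6 fits, without Barx1 intestine replicate 1 (adjusted p = 0.0551). Pbx2 (0.33, adjusted p = 0.0423) lost its call in all 6, and the mean of its probe sets gave 0.15 without a call in both comparisons (adjusted p = 0.155, and 0.104 between stomach and intestine). Meis1 in Barx1 intestine lay below the stomach (-0.37, adjusted p = 0.0332), a call that ended without any 1 of the stomach or Barx1 intestine arrays (adjusted p from 0.109 to 0.212).

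Polycomb proteins keep Hox genes silent and Trithorax proteins keep them active. Of the 19 measured genes of these complexes, 0 passed between Barx1 intestine and intestine by limma, also in each of the 6 fits without 1 array. An unadjusted p under 0.05 was reached by 9, against 2924 of all 12393 genes. The median difference was 0.17, against 0.021 for all genes. Against stomach 1 of the 19, Cbx7, was higher in Barx1 intestine (0.47, limma adjusted p = 0.0204), where 2.56% of all genes were. It lay below the lower quartile in each group (means 3.68 to 4.14), and the mean of its probe sets gave 0.18 without a call (adjusted p = 0.174). Between stomach and intestine 3 of the 19 were higher, Bmi1 (0.36), Ash2l (0.34) and Phc1 (0.31), and 1 was lower, Jarid2 (-0.40). Their limma adjusted p ran from 0.0161 to 0.0266. Of all genes 16.9% passed in that comparison in either direction. With the mean of its probe sets Ash2l fell short of the threshold (0.13, adjusted p = 0.217).

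Among the 11 genes that feed axial position into Hox genes, such as Cdx genes and retinoic acid receptors, 0 passed between Barx1 intestine and intestine by limma. An unadjusted p under 0.05 was reached by 4 of them, against 2924 of all 12393 genes. The retinoic acid receptor gene Rarb, itself a target of retinoic acid, was the 1 of the 11 that passed against stomach. It was lower in Barx1 intestine (-1.39, limma adjusted p = 0.0349), as were 327 of all 12393 genes. Against intestine Rarb differed by -1.09 without a call (limma adjusted p = 0.0614). Rad21, a cohesin subunit, was the 1 of the 11 that passed between stomach and intestine, where 16.9% of all genes did. It was higher in stomach (0.44, limma adjusted p = 0.0235). Each of these calls in the Polycomb, Trithorax and axial lists was lost in 3 or 4 of the 6 fits without 1 array.

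The genes whose levels ran closest to Hoxd8 over the 6 arrays, by the root mean square difference of centred log2 values, were Kcnab1 (0.13), a potassium channel subunit, Pdk4 (0.13), a kinase that restrains pyruvate dehydrogenase, Tnfrsf11b (0.14), which encodes osteoprotegerin, the homeobox gene Dlx2 (0.20) and the zinc finger gene Zfp52 (0.21). They were chosen for this likeness from 12393 genes, so their levels are a description. Dlx2 gave 7.45 and 7.27 for stomach, 8.01 and 7.66 for intestine, and 9.15 and 8.93 for Barx1 intestine, the same order of groups as Hoxd8.

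Array medians lay between 6.93 and 6.98. The mean level of 10 mesenchyme and smooth muscle markers was 12.1 and 12.2 in stomach, 11.8 on both intestine arrays, and 11.6 and 11.8 in Barx1 intestine, and 0 of the 10 passed between the intestine groups by limma (4 at an unadjusted p under 0.05). Of all genes 3.98% passed between the intestine groups in either direction. Against intestine 4 of the 10 were higher in stomach, where 8.86% of all genes were. Against stomach 3 were lower in Barx1 intestine, Pdgfra (-1.07), Col1a1 (-1.01) and Col3a1 (-1.06), where 327 of all 12393 genes were. Some markers of other cell types also differed between groups. For the counts that follow, 263 of all 12393 genes were lower in Barx1 intestine than in intestine. Lower in stomach than in intestine were 1002 genes. The mean of 10 leukocyte markers was 9.02 and 10.0 for intestine, 7.11 and 7.96 for Barx1 intestine, and 8.58 and 8.31 for stomach. In Barx1 intestine against intestine 4 of the 10 fell. All 10 reached an unadjusted limma p under 0.05 there, as did 2924 of all 12393 genes. Their median difference was -1.84, against 0.021 for all genes. The mean of 6 markers of enteric neurons and glia was 7.59 and 7.78 for intestine, 6.14 and 6.42 for Barx1 intestine, and 7.05 and 6.95 for stomach. Lower in Barx1 intestine than in intestine were 3, Sox10, Erbb3 and Ednrb, while Ret (0.15), Elavl4 (-0.03) and Tubb3 (-1.22) had no call. In stomach against intestine the same 3 were lower, and Ret (0.06), Elavl4 (0.36) and Tubb3 (0.69) were above intestine without a call. The mean of 11 endoderm markers was 9.51 and 8.38 for intestine, 8.36 and 7.59 for Barx1 intestine, and 7.15 and 7.98 for stomach. Replicates of a group lay well apart, Barx1 intestine overlapped stomach, and 1 marker was lower in Barx1 intestine than in intestine. Of 6 endothelial markers 4 were below the lower quartile on all arrays. Among these 4, Pecam1 was the 1 marker lower in Barx1 intestine than in intestine (-0.61). Against stomach Kdr (1.28) and Emcn (0.56) were higher in Barx1 intestine and 0 of the 6 were lower, where 2.56% of all genes were higher. Between the intestine groups 0 of 3 mesothelial markers passed by limma (1 at an unadjusted p under 0.05). The part of any of these cell types in the differences of Hoxd8 was not tested. In such mixed cultures fewer cells of a type and less RNA per cell cannot be told apart.

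**Figure D4:**
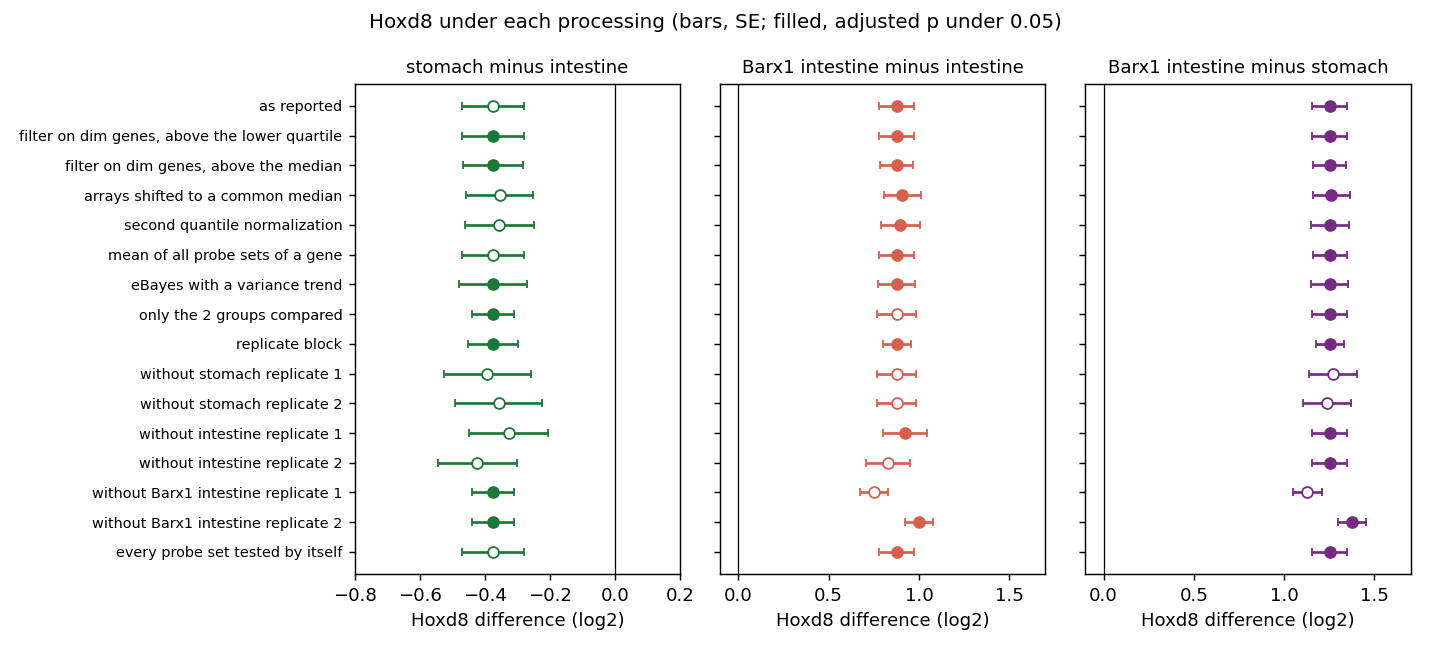
Difference of Hoxd8 on the log2 scale (horizontal axis) in the 3 comparisons under each processing and without each array, with bars of 1 SE. Filled points passed at an adjusted p under 0.05. The difference from intestine stays between 0.75 and 1.00 and that from stomach between 1.13 and 1.38, while several points without 1 array are open.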

How the data were processed

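The values are log2 expression levels that the authors deposited for 6 arrays, made with RMA per the submitters' processing notes, whose version was not given in the sources used here. This step brings arrays to a common distribution, so a change shared by most genes would be removed. Probe sets were named from the platform annotation: 20380 with 1 gene entered, 691 with several and 1606 with none did not, nor did controls. For a gene with several, the probe set of highest mean level stood for it. All arrays entered 1 fit of 3 group means (limma 3.58.1 in R 4.3.3, read with data.table, version 1.17.8; lmFit and eBayes, 3 residual and 2.58 prior degrees of freedom), tested on simulated data, with Benjamini-Hochberg adjustment over 12393 genes within each comparison and a threshold of 0.05. Every adjusted p is from limma. SD is over 2 arrays. Precision is limited by the number of arrays. The labels call the arrays biological replicates without naming litters.

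Members and lists were chosen with earlier results of these data known. The naming rule gives all 7 HoxD genes, up to 4 list genes that passed with the smallest p, paralogs of the group of a HoxD gene that passed, Barx1, and 5 nearest genes to such a HoxD gene. Hoxa9, Hoxb9, Hoxc9 Hoxb6 and list genes given without a call were added after their values were seen. Alternatives were 2 filters on dim genes, centring, a second quantile normalization, other handling of probe sets, a variance trend, fits of 2 groups, a replicate block and leaving out each array.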

Additional observations from a re-analysis of the deposited data

How the results depend on the processing

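Hoxd8 kept its direction in every comparison under every alternative run. Its difference between Barx1 intestine and intestine (0.88) lost the call when only those 2 groups were fitted (adjusted p = 0.0642, 0 HoxD genes called), and that from stomach kept it in all alternatives but those without 1 array. Between stomach and intestine Hoxd8 (-0.38) passed, as the 1 HoxD gene called, with the filter above the lower quartile (adjusted p = 0.0432) or the median (0.03), the variance trend (0.0463), only 2 groups (0.0340) and the replicate block (0.0498). Hoxd12 changed sign between Barx1 intestine and stomach with centred arrays (0.0087) and a second quantile normalization (0.017).

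Genes called in Barx1 intestine against intestine were 493, and 896 with the filter above the median, 1037 with the variance trend, 50 with only 2 groups and 267 with the replicate block. Against stomach they were 644, and 1216, 1189 and 337 with the filter, the trend and the block. With only 2 groups they were 727 against stomach. The filters left fewer genes to adjust over, and the cause was not tested for the other settings. The replicate numbers are not said to pair the arrays, and the replicates' deviations correlated at -0.22 (stomach with intestine), -0.062 (stomach with Barx1 intestine) and 0.20 (the intestine groups) across genes, so the block stayed an alternative. It changed no other HoxD call, and ended 10 of the 30 calls of named genes outside the cluster. A fit of only 2 groups ended 8 of those 30, among them, in Barx1 intestine against intestine, Hoxa9 (adjusted p = 0.0630), Hoxb9 (0.0881), Hoxa7 (0.0874), Hoxb5 (0.119) and Pbx2 (0.117).

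Without 1 array, calls ran from 281 to 1692 between stomach and intestine, from 50 to 466 between Barx1 intestine and intestine, and from 0 (without stomach replicate 2, with 1906 at an unadjusted p under 0.05) to 727 against stomach; HoxD calls ran from 0 to 1 in each. Hoxd8 ran from -0.42 to -0.33, 0.75 to 1.00 and 1.13 to 1.38. Signs changed for members without a call: Hoxd11 (-0.14 to 0.013) and Hoxd13 (-0.14 to 0.20) between stomach and intestine, Hoxd13 (-0.13 to 0.21) between the intestine groups, and Hoxd9 (-0.092 to 0.13), Hoxd11 (-0.097 to 0.056), Hoxd12 (-0.047 to 0.045) and Hoxd13 (-0.14 to 0.16) against stomach. A lone array is assumed to vary like the other groups.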
